A study of Homo sapiens with 4 samples.

Results

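A set of 33 genes of glycolysis and of the response to low oxygen was followed in RNA-seq counts from MDA-MB-231 cells, a human triple-negative breast cancer line with mesenchymal features, after siRNA against hTrmt13 and in control cells. The members are the glucose transporter, glycolytic enzyme, pyruvate-handling and hypoxia-response genes named by symbol, and all 33 were found among the 28930 symbols of the count table and passed the filter on low counts that left 13022 genes. Each group held 2 libraries of the same cell line. The labels call the control siControl and do not say what those cells received. Nor do the sources used here give the siRNA sequence, its dose, the time after treatment or the oxygen tension. They do not say whether replicates were separate cultures, and p-values here therefore cover the spread among these libraries, which may be technical. hTrmt13, encoded by TRMT13, is a tRNA methyltransferase, and the comparison asks which transcripts differ when it is reduced.

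Glycolysis breaks glucose down to pyruvate in the cytosol, and cells that make lactate from that pyruvate can keep producing ATP without oxygen. When oxygen falls, the prolyl hydroxylases that mark HIF1A for destruction lose activity, and HIF1A with its partner ARNT binds short hypoxia response elements with the core letters ACGTG or GCGTG. Many glycolytic genes are known HIF targets, together with genes for blood vessel growth, acid export and removal of mitochondria, and triple-negative breast lines are known for a high rate of glycolysis. HIF1A protein is set mainly by its stability, which RNA counts do not measure.

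The total counts per library ran from 9777267 to 13098985, and levels are given in CPM, read counts scaled to a common library size with TMM. TRMT13 itself had 143 and 244 counts in the control libraries against 37 and 64 in the knockdown libraries, so each library went with its label (−2.02 on the log2 scale, SE 0.34, adjusted p = 0.0399 in edgeR's quasi-likelihood test). VIM, which encodes vimentin, stood between 1769 and 1845 CPM. ESR1 and PGR, which encode the estrogen and progesterone receptors, had 0 counts in every library, as the cell line label implies. The receptor gene ERBB2, however, was not absent, with a range of 112.0 to 166.3 CPM over the libraries. CD44, a further marker, was present but 1.73-fold lower after knockdown (log2 fold change −0.79, SE 0.20, edgeR adjusted p = 0.079, DESeq2 adjusted p = 0.0489). CDH1 and KRT20 had at most 1 count in any library and PTPRC, a blood cell marker, at most 12. Of the fibroblast collagens, COL1A1 was present at 19.2 to 45.7 CPM, while COL3A1 had at most 11 counts (0.85 CPM) in any library. EGFR, another marker of the line, stood at 1064 and 1361 CPM in control against 303.3 and 404.3 CPM in knockdown. It was 3.43-fold lower after knockdown (log2 fold change −1.78, SE 0.25, edgeR adjusted p = 0.0303, DESeq2 adjusted p = 5.01e-07). In such bulk RNA, fewer cells with a transcript and less of it per cell cannot be told apart.

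To show the sequence around the start of the members discussed most, the 250 bases upstream of the RefSeq gene start (build GRCh38.p14) are printed for LDHA, PGK1, ENO2 and P4HA1. They are the members with lower values at an unadjusted p under 0.05 whose window holds the letters ACGTG on either strand. PGAM1, the member with the smallest p, is printed beside them as a window without the core. Capitals mark ACGTG or GCGTG read on either strand, so CACGT and CACGC are also in capitals, and the palindrome CACGTG counts on both. The windows are chr11:18394313-18394562 on the plus strand, chrX:78103998-78104247 on the plus strand, chr12:6914330-6914579 on the plus strand, chr10:73096867-73097116 on the minus strand and chr10:97427568-97427817 on the plus strand.
LDHA: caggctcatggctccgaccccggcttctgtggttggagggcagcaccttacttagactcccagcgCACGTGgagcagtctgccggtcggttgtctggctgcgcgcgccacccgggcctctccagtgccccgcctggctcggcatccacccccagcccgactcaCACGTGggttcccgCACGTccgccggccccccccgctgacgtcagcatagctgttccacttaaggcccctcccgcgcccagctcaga
PGK1: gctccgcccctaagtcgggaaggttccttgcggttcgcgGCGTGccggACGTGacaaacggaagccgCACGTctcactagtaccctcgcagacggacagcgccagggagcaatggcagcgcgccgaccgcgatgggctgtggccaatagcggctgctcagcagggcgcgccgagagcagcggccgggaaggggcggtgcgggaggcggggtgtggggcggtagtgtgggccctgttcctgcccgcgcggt
ENO2: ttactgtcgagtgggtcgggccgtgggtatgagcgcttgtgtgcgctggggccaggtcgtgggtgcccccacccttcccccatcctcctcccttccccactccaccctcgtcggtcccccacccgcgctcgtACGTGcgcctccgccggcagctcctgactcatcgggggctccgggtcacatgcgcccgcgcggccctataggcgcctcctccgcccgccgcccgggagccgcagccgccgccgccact
P4HA1: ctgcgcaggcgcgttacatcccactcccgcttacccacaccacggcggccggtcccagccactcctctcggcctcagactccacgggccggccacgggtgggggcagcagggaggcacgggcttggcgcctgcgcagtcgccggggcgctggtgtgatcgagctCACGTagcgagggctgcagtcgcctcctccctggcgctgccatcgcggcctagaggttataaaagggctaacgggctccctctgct
PGAM1: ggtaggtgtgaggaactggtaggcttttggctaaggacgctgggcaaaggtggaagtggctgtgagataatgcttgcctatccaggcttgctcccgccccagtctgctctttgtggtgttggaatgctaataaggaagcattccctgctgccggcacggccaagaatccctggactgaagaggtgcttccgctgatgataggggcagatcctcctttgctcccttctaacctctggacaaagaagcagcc
In the LDHA window the core letters began 185, 87 and 73 bases upstream of the start, the first 2 as the palindrome CACGTG. In PGK1 they began 211 bases upstream as GCGTG and 202 and 183 bases upstream as ACGTG or its reverse complement, in ENO2 118 bases and in P4HA1 86 bases upstream. A RefSeq entry was matched for 29 of the 33 members, the others being SLC2A3, VEGFA, NDRG1 and BNIP3L. ACGTG occurred in 12 of the 29 windows (41.4%), against 23.7% of 9686 tested genes with an entry and 18.5% of all 35116 promoters of the table. GCGTG occurred in 11 of 29 (37.9%), against 45.8% of the tested genes. The members' windows had a median GC content of 69.6%, against 65.2% for the tested genes, and the core letters contain CG. The 12 members with ACGTG had a median log2 fold change of −0.64 and the 17 without it one of −0.35. In the tested genes these medians were 0.03 and −0.01. Values were negative in 10 of the 12 and 13 of the 17. At an unadjusted p under 0.05 in edgeR, 4 of the 12 and 4 of the 17 were lower. Those without ACGTG were PFKFB4, PGAM1, PDK1 and EGLN3, of which only PGAM1 is printed. Among the tested genes, 238 of 2295 with ACGTG and 978 of 7391 without it were lower. The difference between the classes was not tested. A match of these letters is a description of the window and not a binding site. Each window follows the RefSeq start alone, and whether these cells use that start was not tested. A window without the core therefore says nothing of other starts of the gene.

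None of the 33 members passed an adjusted p of 0.05 in edgeR, where 2.99% of all tested genes did. At an unadjusted p under 0.05, 9 members were lower in the knockdown (27.3% of them, against 12.5% of all tested genes) and 1 was higher (11.5% of all tested genes). The 9 were PFKFB4, PGK1, PGAM1, ENO2, LDHA, PDK1, NDRG1, EGLN3 and P4HA1, and the 1 was PFKM. DESeq2 called 5 members lower, PFKFB4, PGK1, PGAM1, ENO2 and EGLN3, and 0 higher, with 5.09% and 3.46% of all genes, and limma-voom called 0, with 2.5% of all genes in either direction. In 14 members both knockdown libraries lay below both control libraries, a separation seen in 26.8% of all tested genes, and in 2 members both lay above them (27.5% of all tested genes). The log2 fold change was negative in 27 of 33 members, against 49.6% of all tested genes, and its median was −0.37, against 0.01 over all tested genes. Control replicate 1 moved that median most, since it was −0.07 without it, −0.62 without control replicate 2, −0.63 without knockdown replicate 1 and −0.28 without knockdown replicate 2. The members called by edgeR numbered 7 without control replicate 2 (5.49% of all genes in that fit) and 5 without knockdown replicate 1 (6.93%). They numbered 0 without control replicate 1 (5.05%) and 0 without knockdown replicate 2 (5.33%).

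**Figure D1:**
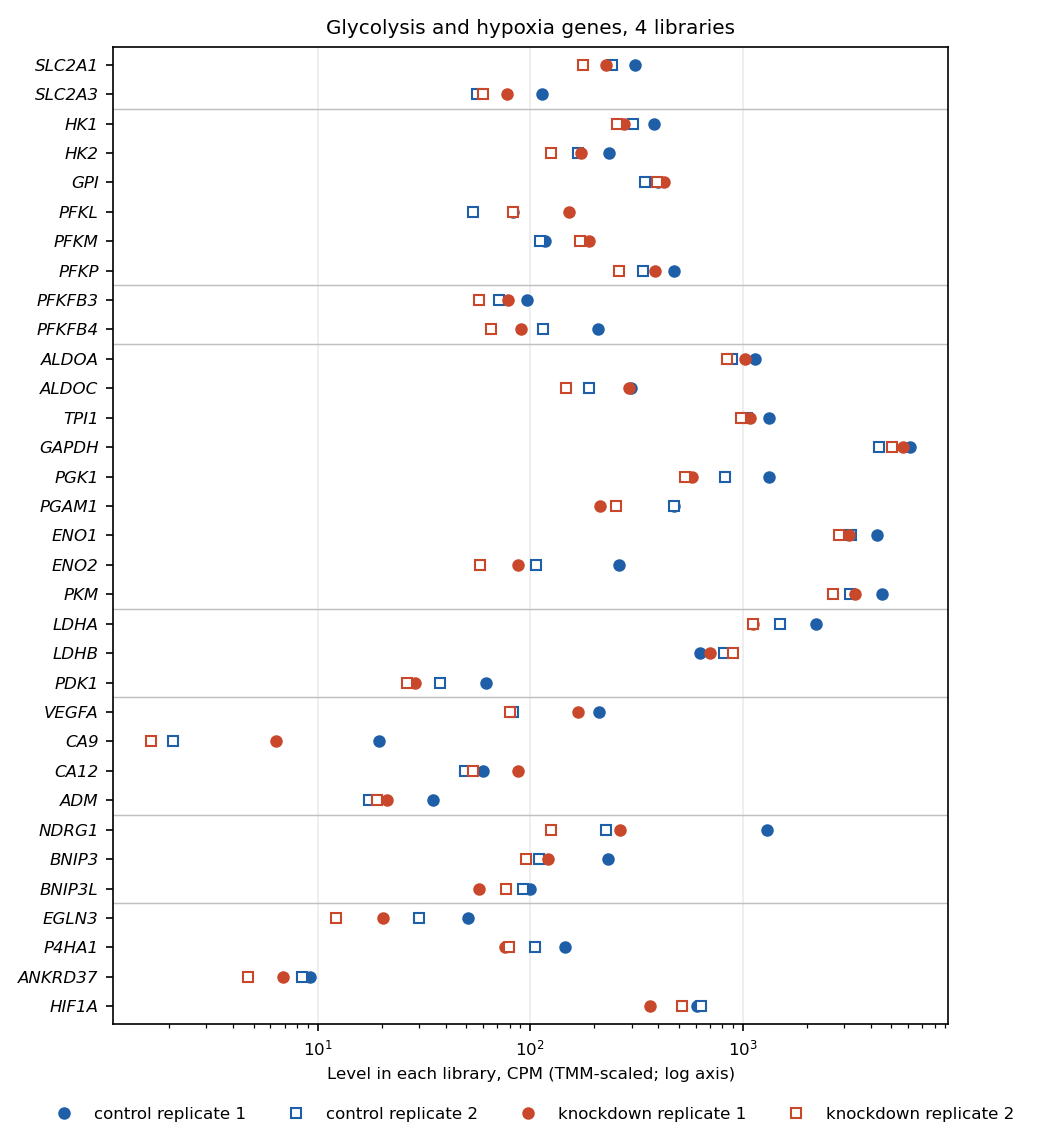
Level of each of the 33 members in each library, in TMM-scaled CPM on a log axis, ordered by role from glucose transport to oxygen sensing. Filled circles are replicate 1 and open squares replicate 2, blue for control and red for knockdown. Control replicate 1 is the highest of the 4 libraries for 26 members, and NDRG1 spans the range from 125.0 to 1299 CPM.

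**Figure D2:**
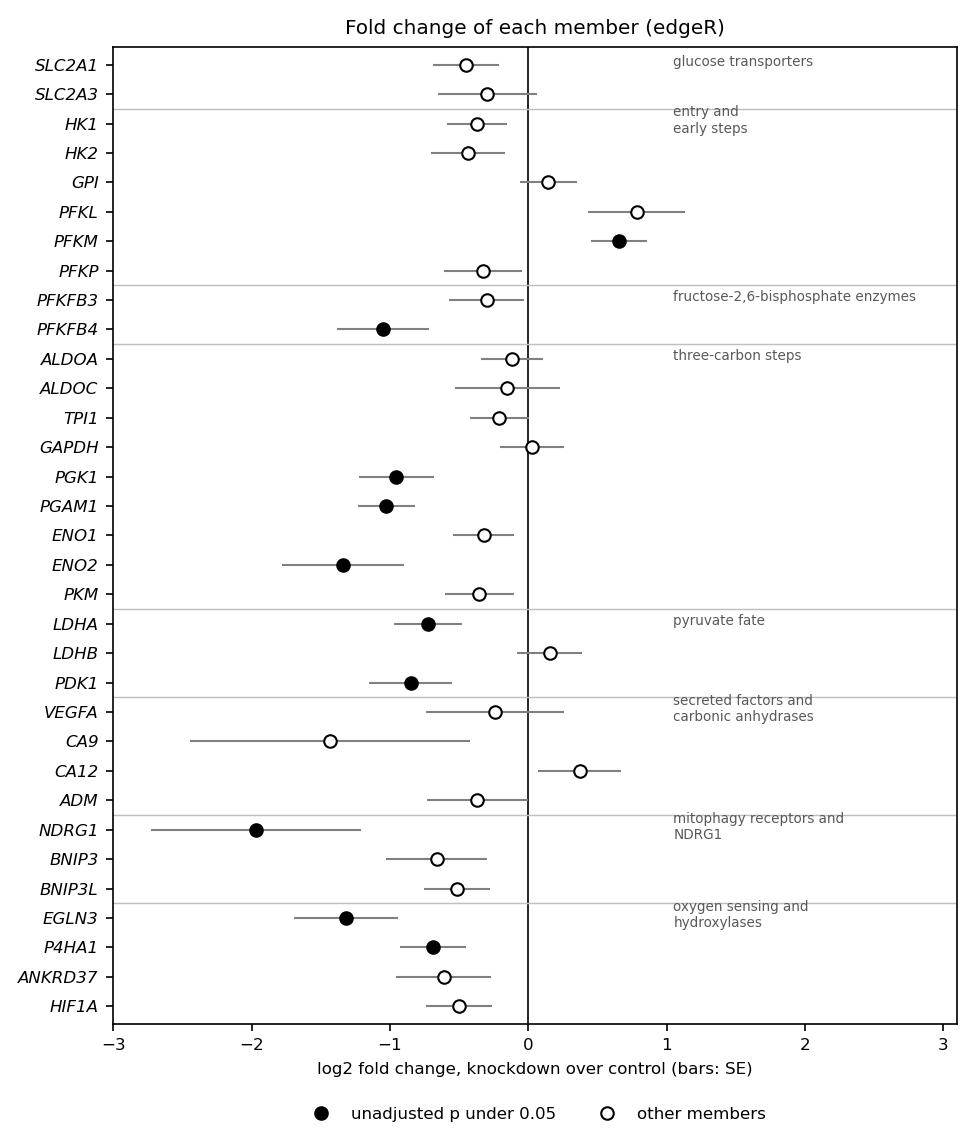
Log2 fold change of knockdown over control for each member with its standard error (edgeR). Filled points have an unadjusted p under 0.05, which are 9 members with negative values and PFKM with a positive one, and no member passed the adjusted threshold.

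Of the 2 glucose transporters, SLC2A3 overlapped between groups and SLC2A1 was lower in the knockdown without overlap. That separation was seen in 26.8% of all tested genes. SLC2A1, which encodes the glucose transporter GLUT1, stood at 311.3 and 242.8 CPM in control against 228.5 and 177.1 CPM in knockdown, or −0.45 on the log2 scale (SE 0.24, edgeR adjusted p = 0.308). Both knockdown libraries lay below both control libraries, and the difference between libraries numbered 1 (−0.45) matched that between libraries numbered 2 (−0.45). SLC2A3, which encodes the high-affinity transporter GLUT3, stood at 113.4 and 56.2 CPM in control against 78.2 and 60.0 CPM in knockdown. Here the groups overlapped, and the value of −0.29 (SE 0.36) became 0.30 without control replicate 1. Per kilobase of exon (GENCODE 29, a later annotation than the hg19 one of the counts), SLC2A1 made up 76.9% ± 5.63 (SD, n = 2) of the 2 transporters' summed level in control and 74.3% ± 0.13 (SD, n = 2) in knockdown.

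In the early steps, both hexokinases had negative values, and the 3 phosphofructokinase isozymes had values of both signs. HK1, the widely expressed hexokinase, stood at 382.5 and 305.2 CPM in control against 276.0 and 255.0 CPM in knockdown, with no overlap (log2 fold change −0.37, SE 0.22, edgeR adjusted p = 0.344). HK2, the hexokinase induced in many tumours, stood at 235.7 and 168.3 CPM against 173.7 and 125.1 CPM, where knockdown replicate 1 lay between the control libraries (−0.44, SE 0.27). GPI, which interconverts glucose and fructose phosphates, stood at 398.4 and 345.6 CPM against 426.7 and 396.8 CPM (0.15, SE 0.20). None of the 3 reached an unadjusted p of 0.05.

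Phosphofructokinase catalyses the committed step, and its liver, muscle and platelet subunits are encoded by PFKL, PFKM and PFKP. PFKM stood at 117.2 and 111.8 CPM in control against 189.2 and 171.4 CPM in knockdown, the 1 member higher at an unadjusted p under 0.05 (log2 fold change 0.66, SE 0.20, edgeR adjusted p = 0.122). PFKL stood at 82.7 and 53.8 CPM in control against 151.6 and 83.4 CPM in knockdown (0.78, SE 0.35, edgeR adjusted p = 0.236), with the lower knockdown library just above the higher control library. PFKP stood at 475.1 and 338.9 CPM in control against 387.8 and 261.2 CPM in knockdown (−0.33, SE 0.28), with overlap. The make-up of the family separated the groups. Per kilobase of exon, PFKP was 70.5% and 68.3% of the summed level in control against 53.0% and 51.9% in knockdown. PFKM went with 13.8% and 17.8% in control and 20.5% and 26.9% in knockdown, and PFKL with 15.7% and 13.9% against 26.5% and 21.2%. These shares do not depend on library scaling, but 2 libraries against 2 cannot go below a two-sided exact permutation p of 0.333, and this family was singled out after its values were seen.

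The bifunctional enzymes PFKFB3 and PFKFB4 set the level of the sugar bisphosphate that activates phosphofructokinase. PFKFB4, a strongly hypoxia-induced form, stood at 208.0 and 115.1 CPM in control against 90.1 and 65.6 CPM in knockdown, 2.07-fold lower (log2 fold change −1.05, SE 0.33, edgeR adjusted p = 0.125, DESeq2 adjusted p = 0.0368). Both knockdown libraries lay below both controls, although the controls differed 1.81-fold, and the value was −0.56 without control replicate 1 and −1.42 without control replicate 2. PFKFB3 stood at 97.0 and 71.4 CPM against 79.0 and 57.7 CPM, with overlap (−0.30, SE 0.27). The difference between these 2 genes was not tested.

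Among the 9 members from aldolase to pyruvate kinase, 8 had negative values, against 49.6% of all tested genes, and PGK1, PGAM1 and ENO2 were lower at an unadjusted p under 0.05, against 12.5% of all tested genes. PGAM1, a phosphoglycerate mutase, stood at 473.9 and 475.2 CPM in control against 213.2 and 252.8 CPM in knockdown, 2.04-fold lower (log2 fold change −1.03, SE 0.21, edgeR adjusted p = 0.0552). Its control libraries were nearly equal, and its value kept between −1.15 and −0.90 when any 1 library was left out. It passed with upper-quartile scaling (edgeR adjusted p = 0.0496), with no filter on low counts (edgeR adjusted p = 0.00168) and in DESeq2 (adjusted p = 0.006). PGK1, which makes ATP from bisphosphoglycerate, stood at 1333 and 823.9 CPM in control against 576.0 and 537.6 CPM in knockdown, 1.94-fold lower (−0.95, SE 0.27, edgeR adjusted p = 0.103, DESeq2 adjusted p = 0.0319). The controls were 1.62-fold apart and the knockdown libraries 1.07-fold apart, and the value was −0.56 without control replicate 1 and −1.26 without control replicate 2. ENO2, the neuronal form of enolase, stood at 262.9 and 106.6 CPM against 88.2 and 57.8 CPM, 2.53-fold lower (−1.34, SE 0.44, edgeR adjusted p = 0.135, DESeq2 adjusted p = 0.0173). Its value was −0.54 without control replicate 1 and −1.85 without control replicate 2.

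The other 6 enzymes of the same stretch had log2 fold changes between −0.35 and 0.03, and none of them reached an unadjusted p of 0.05. GAPDH, the dehydrogenase often used as a reference gene, stood at 6143 and 4363 CPM in control against 5673 and 5030 CPM in knockdown (log2 fold change 0.03, SE 0.23, edgeR adjusted p = 0.96), with the control libraries outside the knockdown ones on both sides. ENO1, the main enolase, stood at 4268 and 3236 CPM against 3152 and 2849 CPM (−0.32, SE 0.22), and PKM, which encodes pyruvate kinase, at 4547 and 3190 CPM against 3378 and 2674 CPM (−0.35, SE 0.25). The ENO1 groups did not overlap and the PKM groups did. TPI1, the triose phosphate isomerase, stood at 1327 and 1051 CPM against 1077 and 983.0 CPM (−0.21, SE 0.21). ALDOA, the main aldolase, stood at 1138 and 895.5 CPM against 1029 and 846.4 CPM (−0.12, SE 0.23), and ALDOC, its brain-type relative, at 299.6 and 188.8 CPM against 293.2 and 147.0 CPM (−0.15, SE 0.38). The 3 genes overlapped between groups, and the aldolase values changed sign, to 0.07 for ALDOA and 0.22 for ALDOC, without control replicate 1. GAPDH turned to −0.20 without control replicate 2. Processed pseudogenes of GAPDH, PGAM1, PGK1, ENO1, TPI1 and LDHA can share reads with them, so these levels depend on how the authors' counting split such reads.

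As a ratio to GAPDH within each library, PGAM1 was 0.0771 and 0.109 in control and 0.0376 and 0.0503 in knockdown. PGK1 over GAPDH was 0.217 and 0.189 in control and 0.102 and 0.107 in knockdown. Both ratios kept the groups apart, and by this measure the PGK1 control libraries lay closer together and the PGAM1 control libraries further apart than in CPM.

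Among the genes that decide between lactate and mitochondrial use of pyruvate, LDHB overlapped between groups. LDHA and PDK1 were lower in both knockdown libraries than in both controls, a separation seen in 26.8% of all tested genes. LDHA, the dehydrogenase subunit favoured for making lactate, stood at 2222 and 1496 CPM in control against 1124 and 1124 CPM in knockdown, 1.65-fold lower (log2 fold change −0.73, SE 0.24, edgeR adjusted p = 0.141, DESeq2 adjusted p = 0.118). Without control replicate 1 the LDHA value was −0.41, and without control replicate 2 it was −0.98. LDHB, the subunit of the heart form, stood at 627.8 and 812.8 CPM in control against 700.8 and 902.6 CPM in knockdown (0.15, SE 0.24), and unlike most members it was lower in replicate 1 than in replicate 2 of both groups. The count ratio of LDHA to LDHB was therefore 3.54 and 1.84 in control and 1.60 and 1.24 in knockdown. Per kilobase of exon LDHA was 57.5% ± 11.2 (SD, n = 2) of the pair in control and 43.0% ± 4.38 (SD, n = 2) in knockdown. Control replicate 2 (49.6%) lay near knockdown replicate 1 (46.1%). These shares rest on merged lengths of all annotated exons, 2969 bases for LDHA and 1586 for LDHB. The transcripts expressed may differ in length, and by counts alone LDHA exceeded LDHB in every library. PDK1, the kinase that inactivates pyruvate dehydrogenase, stood at 61.8 and 37.8 CPM against 28.8 and 26.4 CPM, 1.80-fold lower (−0.85, SE 0.30, edgeR adjusted p = 0.155), and its value was −0.45 without control replicate 1 and −1.16 without control replicate 2.

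**Figure D3:**
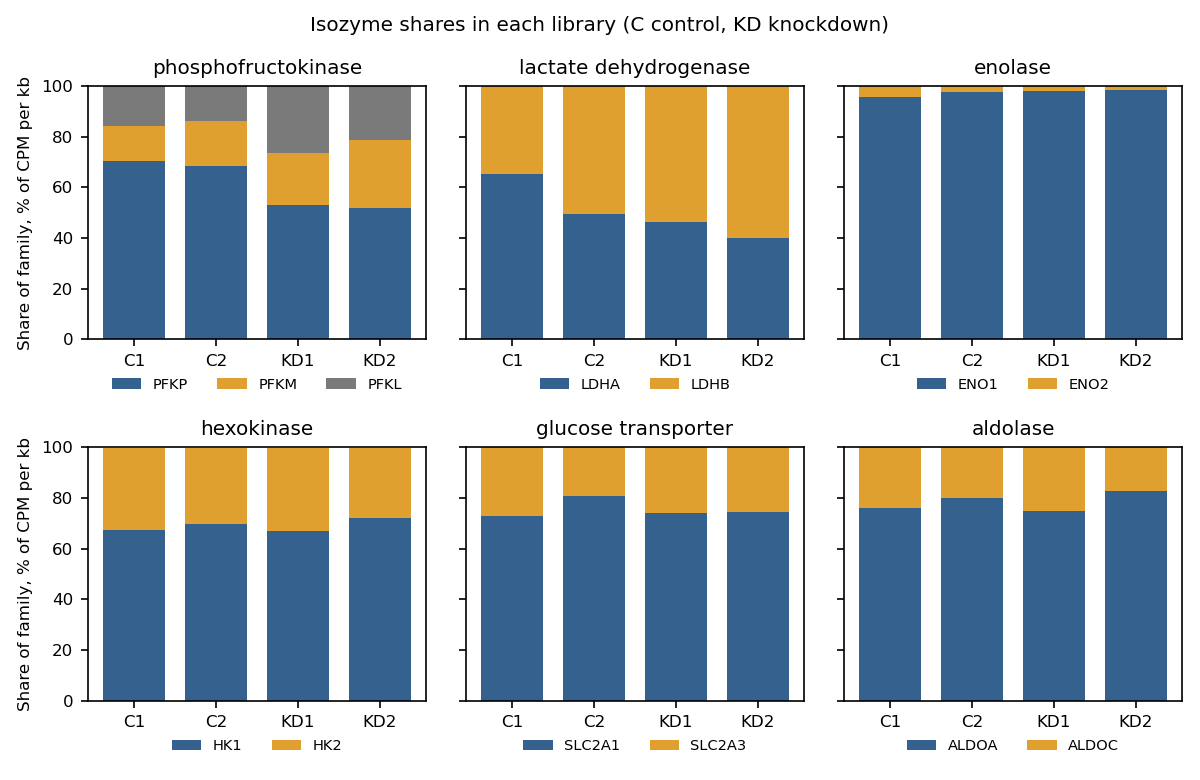
Share of each isozyme in its family's summed level per kilobase of exon, as a percentage, for the control (C1, C2) and knockdown (KD1, KD2) libraries. PFKP takes 70.5% and 68.3% of phosphofructokinase in control and 53.0% and 51.9% in knockdown, ENO1 takes over 95% of enolase in every library, and the hexokinase and aldolase shares overlap between groups.

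Hexokinase shares overlapped between groups, while those of enolase and of the PFKFB pair did not. HK1 was 68.6% ± 1.69 (SD, n = 2) of the hexokinase level per kilobase in control and 69.5% ± 3.72 (SD, n = 2) in knockdown. ENO1 was 96.5% ± 1.44 (SD, n = 2) of enolase in control and 98.2% ± 0.40 (SD, n = 2) in knockdown, so ENO2 contributed a few percent in any library. PFKFB4 was 76.5% and 71.0% of its pair in control and 63.4% and 63.3% in knockdown.

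The secreted factors and carbonic anhydrases showed no separation between groups, against 26.8% of all tested genes separated lower and 27.5% higher. Within this set of members, the distance between replicates was the main feature of the values. VEGFA, the vascular growth factor, stood at 211.6 and 83.0 CPM in control against 168.6 and 80.8 CPM in knockdown (log2 fold change −0.24, SE 0.50, edgeR adjusted p = 0.811). Each replicate 1 was more than 2-fold above its replicate 2, with ratios of 2.55 in control and 2.09 in knockdown, and the value became 0.59 without control replicate 1. CA9, a carbonic anhydrase of the cell surface that is a widely used hypoxia marker, stood at 19.5 and 2.09 CPM in control against 6.37 and 1.65 CPM in knockdown (−1.43, SE 1.01). It had 187 and 27 counts in control and 67 and 22 in knockdown, a ratio between replicates of 9.35 and 3.87, and its value became 0.92 without control replicate 1. CA12, its relative, stood at 60.1 and 49.3 CPM against 87.9 and 53.7 CPM (0.37, SE 0.30). ADM, which encodes the vasodilator adrenomedullin, stood at 34.8 and 17.4 CPM against 21.3 and 19.0 CPM (−0.37, SE 0.37) and also changed sign, to 0.22, without control replicate 1.

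NDRG1, a hypoxia- and stress-induced gene, had the most negative value of the members, and the size of that value depended on control replicate 1. It stood at 1299 and 226.6 CPM in control against 265.0 and 125.0 CPM in knockdown (log2 fold change −1.97, SE 0.76, edgeR adjusted p = 0.18), with knockdown replicate 1 above control replicate 2. Without control replicate 1 the NDRG1 value was −0.22, and without control replicate 2 it was −2.74. Its knockdown was lower both between the libraries numbered 1 (−2.29) and between those numbered 2 (−0.86). BNIP3, a receptor for the removal of mitochondria, stood at 233.2 and 110.6 CPM against 121.8 and 95.3 CPM (−0.66, SE 0.37), and −0.02 without control replicate 1. Its relative BNIP3L stood at 99.6 and 92.4 CPM against 57.5 and 76.8 CPM (−0.51, SE 0.24, edgeR adjusted p = 0.246), and there both knockdown libraries lay below both controls.

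HIF1A, its hydroxylase EGLN3, P4HA1 and ANKRD37 each lay lower in both knockdown libraries than in both control libraries, a separation seen in 26.8% of all tested genes. P4HA1 and ANKRD37 are hypoxia-induced genes and not oxygen sensors. In the separate list of 14 other tested genes for HIF subunits and oxygen sensing, 3 genes were separated lower and 4 higher (27.5% of all tested genes). EGLN3, a prolyl hydroxylase that is itself a HIF target, stood at 50.9 and 29.9 CPM in control against 20.2 and 12.2 CPM in knockdown, 2.49-fold lower (log2 fold change −1.32, SE 0.38, edgeR adjusted p = 0.104, DESeq2 adjusted p = 0.0169). Its difference was alike between the libraries numbered 1 (−1.32) and those numbered 2 (−1.28), while its value moved to −0.88 with control replicate 1 left out and to −1.72 with knockdown replicate 1 left out. P4HA1, a subunit of collagen prolyl hydroxylase, stood at 145.7 and 105.7 CPM against 75.9 and 79.9 CPM, 1.61-fold lower (−0.69, SE 0.24, edgeR adjusted p = 0.15), and −0.44 without control replicate 1. ANKRD37, a small ankyrin-repeat gene induced by hypoxia, stood at 9.19 and 8.43 CPM against 6.85 and 4.72 CPM (−0.61, SE 0.34), on 332 counts in all. HIF1A, the oxygen-regulated subunit itself, stood at 610.7 and 639.4 CPM in control against 365.5 and 518.8 CPM in knockdown, 1.41-fold lower (−0.50, SE 0.24, edgeR adjusted p = 0.256), with the knockdown libraries further apart than the controls. Without a known strand setting, reads of antisense transcripts at HIF1A may be counted with it.

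The members' levels also differed by replicate number. Control replicate 1 was the highest of the 4 libraries for 26 of 33 members (78.8%), against 24.3% of all tested genes, and knockdown replicate 2 was the lowest for 21 (63.6%), against 22.7%. In control, replicate 1 was above replicate 2 for 30 members, with a median log2 difference of 0.49 (−0.03 over all tested genes). In knockdown, it was above for 28, with a median of 0.34 (−0.002 over all tested genes). Between the libraries numbered 1 the knockdown was lower by a median of −0.45, and between those numbered 2 by −0.30. In both of these differences 25 members were lower, against 40.4% of all tested genes, and 5 were higher (39.2% of all tested genes). The titles give consecutive sample numbers to the libraries of equal replicate number, but the labels do not say what a replicate number stands for.

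**Figure D4:**
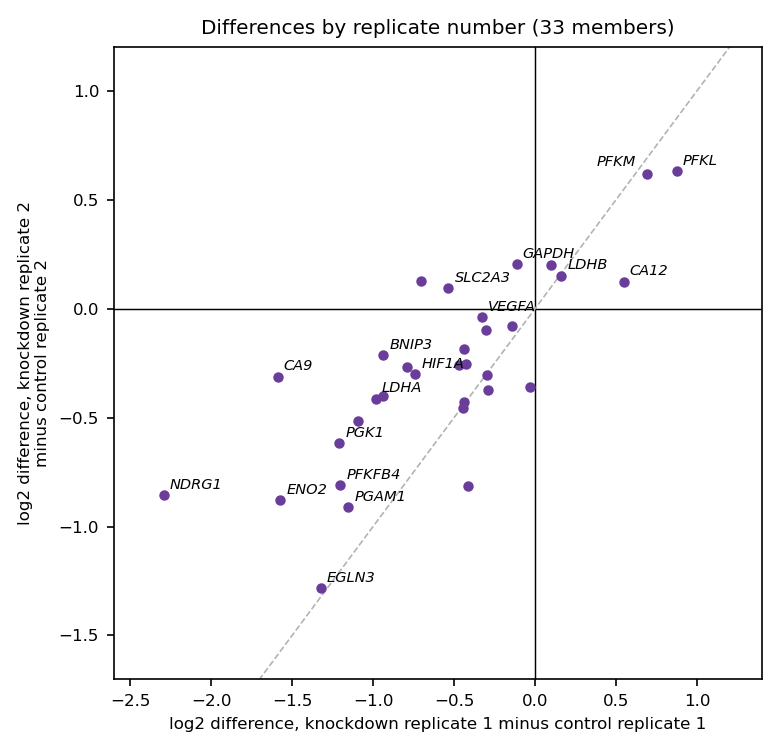
Log2 difference of knockdown minus control between the libraries numbered 1 (x axis) and between those numbered 2 (y axis) for the 33 members, with equality as the dashed line. In the lower left quadrant lie 25 members, PFKM, PFKL, GPI, LDHB and CA12 lie in the upper right, and NDRG1 has a larger difference in replicate 1 (−2.29) than in replicate 2 (−0.86).

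Related genes were read from 5 further lists, all in the same fit. Of all tested genes, edgeR called 2.99% past its threshold, 1.03% higher and 1.96% lower. At an unadjusted p under 0.05, 11.5% of all tested genes were higher and 12.5% lower, and DESeq2 called 3.46% higher and 5.09% lower. Of 28 other glycolytic isozymes and sugar transport genes, 17 were tested, and 0 passed the edgeR threshold, with 1 higher and 4 lower at an unadjusted p under 0.05, a median log2 fold change of −0.23, and 0 higher and 1 lower in DESeq2. PGM2, a phosphoglucomutase, stood at 41.4 and 59.3 CPM in control against 17.7 and 23.4 CPM in knockdown (−1.29, SE 0.29, edgeR adjusted p = 0.0662, DESeq2 adjusted p = 0.00599), and SLC2A10, a sugar transporter, at 6.58 and 7.66 CPM against 2.38 and 3.89 CPM (−1.17, SE 0.39, edgeR adjusted p = 0.136). Both lay lower in the knockdown without overlap between groups, as did 26.8% of all tested genes.

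The pentose phosphate pathway takes sugar phosphates away from glycolysis. Of its 10 genes tested, 8 had positive values (50.4% of all tested genes), with 0 past the edgeR threshold, 3 higher (11.5% of all tested genes) and 0 lower at an unadjusted p under 0.05, a median of 0.15, and 2 higher in DESeq2. RPIA, which isomerises ribose phosphate, stood at 15.7 and 21.3 CPM in control against 42.4 and 41.3 CPM in knockdown (log2 fold change 1.18, SE 0.26, edgeR adjusted p = 0.0646). Of 32 genes of pyruvate entry and the citric acid cycle, 0 passed, with 3 higher and 1 lower at an unadjusted p under 0.05 and a median of 0.19, and DESeq2 called 0 higher and 1 lower. IDH2, the mitochondrial isocitrate dehydrogenase, stood at 12.7 and 21.2 CPM against 3.71 and 5.47 CPM (−1.88, SE 0.39, edgeR adjusted p = 0.0576, DESeq2 adjusted p = 0.00168).

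Of 14 tested genes for HIF subunits and oxygen sensing, 0 passed in edgeR, with 3 higher and 0 lower at an unadjusted p under 0.05, a median of −0.11, and 1 higher in DESeq2. CITED2, which competes with HIF1A for its coactivators, stood at 69.6 and 90.0 CPM in control against 169.6 and 186.3 CPM in knockdown (log2 fold change 1.16, SE 0.23, edgeR adjusted p = 0.0522, DESeq2 adjusted p = 0.00339). EGLN2, another prolyl hydroxylase, stood at 42.3 and 43.1 CPM against 73.9 and 63.7 CPM (0.69, SE 0.23, edgeR adjusted p = 0.135), the opposite direction to EGLN3, a difference between the genes that was not tested. Of 39 other hypoxia-responsive genes tested, 4 were higher and 10 lower at an unadjusted p under 0.05, with a median of −0.24. DESeq2 called 4 higher and 4 lower. In edgeR 1 fell past the threshold and 0 rose, against 1.96% and 1.03% of all tested genes. The 1 was BHLHE40, a transcriptional repressor, which stood at 390.6 and 245.1 CPM in control against 72.5 and 64.5 CPM in knockdown, 4.64-fold lower (−2.21, SE 0.29, edgeR adjusted p = 0.0276), and kept the call with any 1 library left out (largest edgeR adjusted p = 0.0146).

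**Figure D5:**
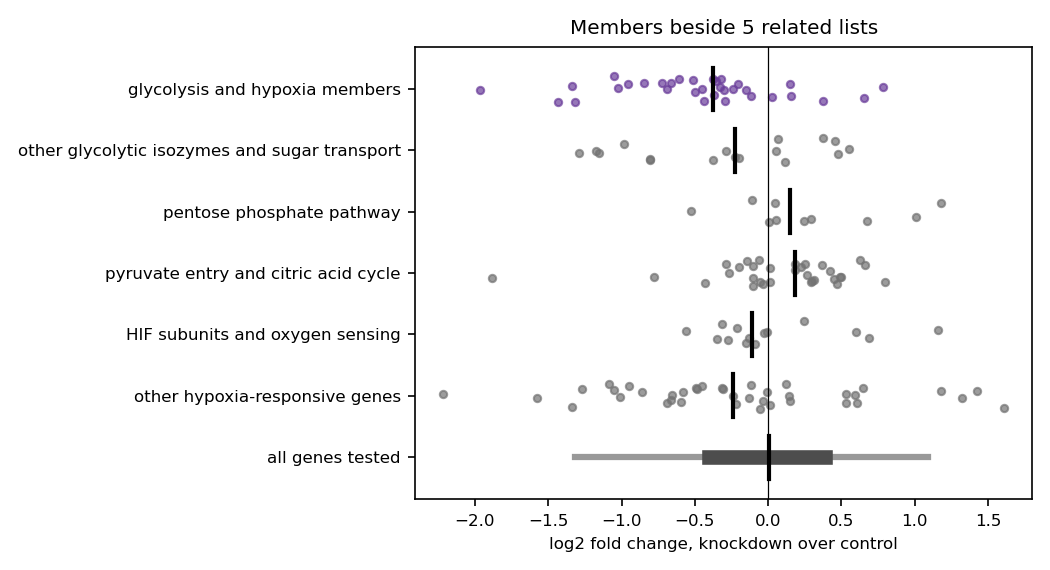
Log2 fold change of each tested gene for the members (purple) and the 5 related lists (grey), with list medians as black bars, and for all tested genes the 5th to 95th percentile (thin bar, −1.32 to 1.09) and the quartiles (thick bar). The members' median is −0.37, the pentose phosphate and citric acid cycle medians are 0.15 and 0.19, and no list stays on one side of 0.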

How the data were processed

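Gene-level RNA-seq was analysed for 4 MDA-MB-231 libraries, 2 controls labelled siControl and 2 with siRNA against hTrmt13, grouped by their labels. What the authors deposited is a table of unnormalized counts, 1 row per gene symbol and 1 column per library. Per the submitters' processing notes, the tools were STAR 2.5.2b, HTSeq 0.6.1, cutadapt and limma, on hg19 (also written GRCh37), with no role for each. No source used here states the annotation or the strand setting. Of 28930 symbols, 10298 had no count, and 1 CPM rests on about 10 to 13 counts. Replicate libraries differed by more than counting error (chi-square over its degrees of freedom 40.4 for the controls and 44.5 for the knockdowns) and were kept as single samples.

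The test was that of edgeR 4.0.16 under R 4.3.3 (TMM, filterByExpr with minimum count 10 and minimum total 15, quasi-likelihood test, no covariate), with Benjamini-Hochberg adjustment over all 13022 genes tested and a threshold of 0.05. SEs were derived from that fit, as the absolute log2 fold change over the square root of its quasi-likelihood F statistic. Log2 differences between single libraries use a prior count of 2. Alternatives were 3 other scalings, no filter, a mean of at least 5 CPM, DESeq2 1.42.0, limma-voom (limma 3.58.1), a replicate block, and each library left out. Isozyme shares divide CPM by the merged length of all exons annotated for the gene in GENCODE 29 (GRCh38). Upstream sequences are RefSeq's (GRCh38.p14), so neither uses coordinates of the counts. The members and lists were chosen with earlier results of these data known. Named genes are all members, TRMT13, and from each other list up to 4 genes past the threshold or else the 2 with the smallest p, except 2 genes that are not reported here. With counts simulated for 12852 genes of this comparison, edgeR found 18 of 100 planted 2-fold changes, 86 of 100 planted 4-fold changes and 17 genes with no change. The simulated libraries were drawn independently with the dispersions of the fit without a block. Deviations shared by libraries of equal replicate number were not simulated.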

Additional observations from a re-analysis of the deposited data

How the results depend on the processing

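Tests with 2 libraries a group have little power for changes near 2-fold. The members' median moved up or down with the library left out, and not with control replicate 1 alone. With the 3 other scalings, limma-voom or a mean of at least 5 CPM, 32 or 33 of the 33 members kept their direction and side of the threshold, the exception being PGAM1 with upper-quartile scaling, where 1 member was called (3.25% of all genes). No filter called 9 members (10.5% of all genes), DESeq2 5 (8.55%), and leaving out 1 library 0 to 7 (5.05% to 6.93%). Their median ran from −0.635 to −0.0734 with 1 library left out. The sign turned in 9 members, whose values ran from −0.28 to 0.0698 for ALDOA, −0.73 to 0.27 for ALDOC, −0.20 to 0.30 for GAPDH, −0.0391 to 0.35 for LDHB, −0.72 to 0.30 for SLC2A3, −0.86 to 0.59 for VEGFA, −2.69 to 0.92 for CA9, −0.0198 to 0.69 for CA12 and −0.79 to 0.22 for ADM. The cause was not tested.

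Over all genes 389 were called, 1949 with no filter, 1130 in DESeq2 and 678 to 935 with 1 library left out. In the related lists, no filter and DESeq2 called 3 and 1 of the other glycolytic genes, 2 and 2 of the pentose phosphate genes, 2 and 1 of the citric acid cycle genes, 1 and 1 of the oxygen-sensing genes and 13 and 8 of the other hypoxia-responsive genes. The oxygen-sensing list also had 1 call with DESeq2 size factors and 1 with upper-quartile scaling. With 1 library left out these lists had 1 to 2, 0 to 1, 0 to 1, 0 to 1 and 3 to 10 calls. TRMT13 stayed past the threshold throughout.

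With the replicate number as a block, 5227 genes were called (40.1%), and 17 members, 2 higher and 15 lower (19.3% and 20.8% of all genes). The block called 7 other glycolytic, 4 pentose phosphate, 11 citric acid cycle, 4 oxygen-sensing and 23 other hypoxia-responsive genes. Libraries of equal number deviated together from their group means (r = 0.639 across genes, which are not independent), but with 2 pairs and no label for the number this does not establish a pairing.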
